A study of Caenorhabditis elegans with 18 samples.

Results

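Cytochrome P450 genes of Caenorhabditis elegans were followed through 18 RNA sequencing libraries of whole larvae. The members are all genes of the expression table whose symbol is cyp- with a family number and a subfamily letter, which gave 74 of the 20953 genes in the table. The rule used names only and no measured value. All 74 are annotated as protein coding.

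The study asks how the animal rewires propionate metabolism and what the nuclear hormone receptors nhr-10 and nhr-68 contribute. It crossed 3 genotypes with 3 treatments, with 2 libraries in each of the 9 groups. The mutants were an nhr-10 deletion, allele tm4695, and an nhr-68 deletion, allele gk708 in strain VC1527, and both were set against wild-type N2. Over 48 hours, larvae of each genotype were given 20 nM vitamin B12 with 40 mM propionate, 20 nM vitamin B12 alone, or no addition.

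All groups were raised on NGM agar without vitamin B12 until treatment, synchronized over 2 generations by arrest in the first larval stage, and collected at the L4 larval stage, about 3000 animals a library. Each mutant was represented by 1 allele, so the deletion and the rest of its strain's genome cannot be told apart. The labels do not say whether replicates came from separate cultures, so p-values measure the spread between these libraries, which may be technical.

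Cytochrome P450 enzymes are haem proteins, most of them anchored in the endoplasmic reticulum, that use oxygen and electrons from a P450 reductase to add oxygen to fat-soluble molecules. They act on foreign chemicals, fatty acids and sterols. The worm intestine is a main site of this detoxification, and nuclear hormone receptors are known regulators of P450 genes. The family number in a symbol groups enzymes by protein similarity, and several families lie in the genome as neighbouring copies.

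The deposited values are FPKM, that is fragments per kilobase of transcript relative to all fragments of the library, and levels of different genes can be compared on this scale because it is per length. Totals were between 841999.6 and 920001.8 FPKM a library. The spacing of low values put the depth at about 12700000 to 14200000 fragments, a rough estimate, so 1 FPKM on a P450 gene of median length rests on 20.3 to 22.7 fragments. The nhr-10 transcript was at 6.14 to 10.33 FPKM in nhr-10 mutants, 16.9 to 21.82 FPKM in nhr-68 mutants and 12.23 to 33.45 FPKM in wild type. The nhr-68 transcript was at 5.18 to 140.23 FPKM in nhr-10 mutants, 1.71 to 14.95 FPKM in nhr-68 mutants and 48.69 to 108.25 FPKM in wild type. In both cases the deleted gene was lower in all its own mutant libraries than in any wild-type library. No listed marker of intestine, muscle, pharynx, neuron, epidermis, sperm or oocytes was at 0 in any library.

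The P450 genes spanned the range from nearly silent to moderately expressed. Of the 74, 15 averaged at least 10 FPKM over the 18 libraries and 45 at least 1 FPKM. The highest mean level was that of cyp-35A2, a xenobiotic-inducible gene also linked to fat storage, at 42.6 FPKM. It was followed by cyp-35C1, another xenobiotic-inducible gene, at 30.5 FPKM and cyp-14A5 at 29.2 FPKM. Next came cyp-25A2 at 16, cyp-31A2 at 15.7 and cyp-37A1 at 15.5 FPKM. The genes cyp-31A2 and cyp-31A3 are known to be needed for the permeability barrier of the eggshell, and cyp-31A3 averaged 14.1 FPKM, close to its relative cyp-31A5 at 14.3 FPKM. In the same range were cyp-29A2 at 13.7 and cyp-33A1 at 12.7 FPKM. The leading genes of the remaining families were cyp-13A2 at 11.9, cyp-43A1 at 11.7, cyp-42A1 at 11.6, cyp-44A1 at 11.1, cyp-34A9 at 10.1, cyp-32A1 at 8.48, cyp-36A1 at 3.93 and cyp-23A1 at 2.46 FPKM. Of these, cyp-44A1 encodes the mitochondrial type of P450 and cyp-36A1 acts in the response to low oxygen.

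Only 49 of the 74 passed the filter for testing, at least 1 FPKM in at least 2 libraries. The other 25 had means up to 0.578 FPKM and a highest single value of 1.9 FPKM, and 5 of them were listed at 0 in 9 or more libraries. One of the 25 was cyp-13A7, at 0 to 0.88 FPKM. No member was at 0 in all libraries. Between 0.0332% and 0.0593% of the FPKM total of a library belonged to P450 genes.

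**Figure D1:**
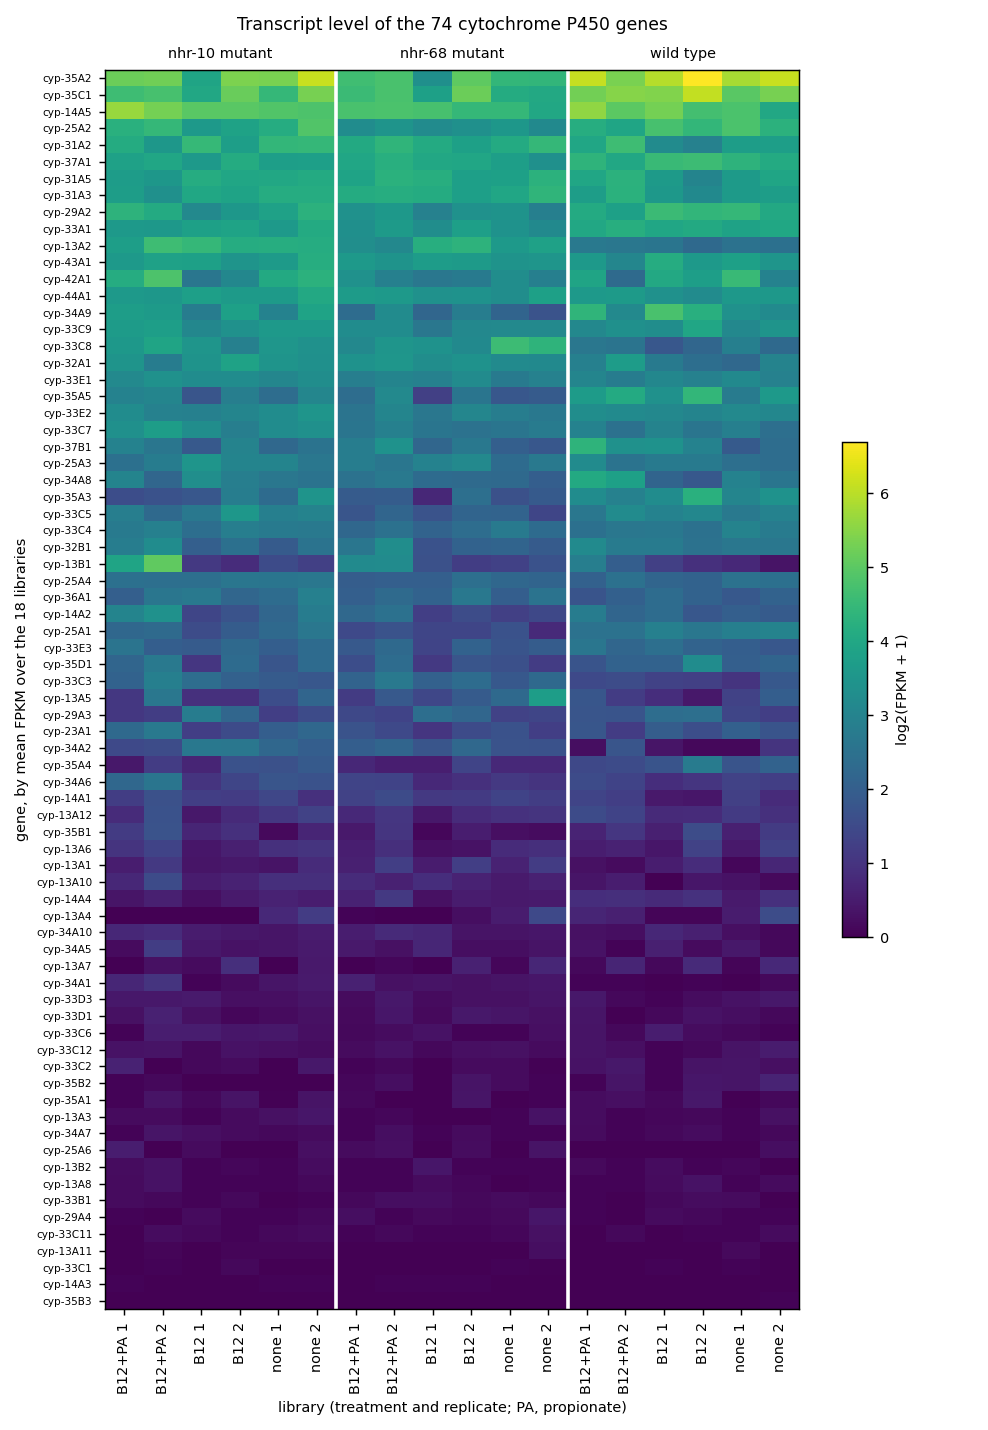
Heat map of the log2(FPKM + 1) level of each of the 74 P450 genes (rows, in order of mean FPKM) in each of the 18 libraries (columns, nhr-10 mutants, nhr-68 mutants and wild type, each with B12 and propionate, B12, and no addition). The brightest rows are cyp-35A2, cyp-35C1 and cyp-14A5, with means of 42.6, 30.5 and 29.2 FPKM, and 25 genes lie too low for testing.

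Summed over all members, P450 transcripts were lowest in nhr-68 mutants. The sum was 350.34 to 519.72 FPKM in the 6 nhr-10 libraries (median 430.6), 284.81 to 386.39 FPKM in the 6 nhr-68 libraries (median 324.2) and 412.07 to 515.73 FPKM in the 6 wild-type libraries (median 452.9). Every nhr-68 library lay below every wild-type library, while the nhr-10 libraries overlapped both other genotypes. The 10 cyp-35 genes made up 9.13% to 43.7% of the sum in a library. Without them the sum was 313.65 to 411.7 FPKM in nhr-10 mutants, 258.8 to 316.52 FPKM in nhr-68 mutants and 273.18 to 369.84 FPKM in wild type, and there the nhr-68 and wild-type ranges overlapped. In whole animals, fewer cells of a type and less RNA per cell cannot be told apart.

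The members fall into 15 families by number, the largest being cyp-33 with 18 genes, cyp-13 with 13, cyp-35 with 10 and cyp-34 with 8. In the WBcel235 annotation 41 of the 74 lie on chromosome V and 12 on chromosome II. With gaps of at most 10000 bp, 44 lie in 12 runs of neighbours. The longest run holds 10 genes on chromosome V at 3936326 to 3972991, among them cyp-35A5 and cyp-34A5 to cyp-34A10, and another holds cyp-13A1 to cyp-13A8 on chromosome II at 9779181 to 9807569. Neighbours differed in level. In the cyp-13A run cyp-13A2 averaged 11.9 FPKM and cyp-13A7 0.296 FPKM. The values of near-identical neighbours are uncertain, because reads that map to several genes were divided between them by estimate.

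Of the 49 tested genes, 20 were called in at least 1 of 16 comparisons, where called means an adjusted p under 0.05 in limma over all 15575 genes tested. This is 40.8%, against 26.2% of all genes. The other 29 were called in none. Differences are given as log2 differences on the log2(FPKM + 1) scale with their standard error, which understates changes of genes near 1 FPKM.

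Vitamin B12 alone raised 1 P450 gene, cyp-29A3 (V:59239-63633), in nhr-10 mutants and in wild type. Its product is known to make eicosanoids from long-chain fatty acids. In nhr-10 mutants cyp-29A3 was at 6.02 and 3.64 FPKM on B12 and at 1.37 and 1.87 FPKM without addition. In nhr-68 mutants it was at 4.36 and 3.6 FPKM on B12 and at 1.48 and 1.65 FPKM without addition. In wild type it was at 4.24 and 4.5 FPKM on B12 and at 1.62 and 1.37 FPKM without addition. All 6 B12 libraries lay above all 6 libraries without addition. The log2 difference was 1.13 ± 0.20 in nhr-10 mutants (adjusted p = 0.0202, 2.98-fold in mean FPKM), 0.95 ± 0.20 in nhr-68 mutants (adjusted p = 0.0503) and 1.11 ± 0.20 in wild type (adjusted p = 0.0269, 2.92-fold). The difference of the nhr-10 and wild-type responses was 0.02, with a 95% interval of -0.59 to 0.64, and that of the nhr-68 and wild-type responses was -0.15, with an interval of -0.77 to 0.46.

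In nhr-10 mutants cyp-29A3 was thus the 1 member called for B12, of 49, against 0.783% of all genes. In nhr-68 mutants limma called 0 members, against 0.751% of all genes, with 6 at an unadjusted p under 0.05 (12.2%, against 8.45% of all genes). In wild type it was again the 1 member called, against 0.616% of all genes. The wild-type call ended when any of the 4 wild-type libraries concerned was left out (adjusted p = 0.0851 to 0.215). The nhr-10 call ended without either untreated nhr-10 library or without replicate 1 on B12 (adjusted p = 0.0689 to 0.191).

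The other genes nearest to a B12 call missed the threshold. In nhr-10 mutants the log2 difference of cyp-14A2 was -0.95 (adjusted p = 0.199), of cyp-25A2 -0.76 (adjusted p = 0.243) and of cyp-13A4 -0.98 (adjusted p = 0.271). In nhr-68 mutants cyp-33C8 had a difference of -1.18 ± 0.25 (adjusted p = 0.0583), cyp-13A4 one of -0.87 (adjusted p = 0.488) and cyp-13A5 one of -1.32 (adjusted p = 0.507). In wild type cyp-34A8 had a difference of -0.78 (adjusted p = 0.366), cyp-14A1 -0.62 (adjusted p = 0.425) and cyp-13A4 -0.95 (adjusted p = 0.428). The B12 responses of the mutants were not called as different from that of wild type for any member, against 0.0257% of all genes for nhr-10 and 0.00642% for nhr-68. At an unadjusted p under 0.05, limma gave 5 members for nhr-10 (10.2%, against 8.82% of all genes) and 1 for nhr-68 (2.04%, against 5.7%). The smallest p-values were those of cyp-34A8, with differences of 1.25 for nhr-10 (adjusted p = 0.406) and 0.96 for nhr-68 (adjusted p = 0.731). For nhr-10 they were followed by cyp-14A2 at -1.07, cyp-29A2 at -0.96 (adjusted p = 0.521 for both) and cyp-25A2 at -0.81 (adjusted p = 0.548). For nhr-68 they were followed by cyp-33C9 at -0.59 (adjusted p = 0.957), cyp-13A2 at 0.60 (adjusted p = 0.969) and cyp-33C8 at -0.61 (adjusted p = 0.989).

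Propionate, added on top of B12, raised cyp-13B1, cyp-14A2, cyp-34A6 and cyp-23A1 and lowered cyp-29A3 in nhr-10 mutants, and raised cyp-34A8 in wild type. In nhr-10 mutants 5 of 49 members were called, 4 higher and 1 lower (10.2%), against 7.24% of all genes. In nhr-68 mutants limma called 0 members, against 0.417% of all genes, and 6 passed an unadjusted p of 0.05 (12.2%, against 9.28% of all genes). In wild type 1 member was called, against 0.411% of all genes. The median log2 difference of the tested members was 0.22 in nhr-10 mutants (0.04 for all genes), 0.19 in nhr-68 mutants (0.05 for all genes) and 0.10 in wild type (0.08 for all genes).

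The gene cyp-13B1 (X:13406674-13409643) had the largest response. In nhr-10 mutants it was at 14.02 and 32.37 FPKM with propionate and at 1.17 and 0.8 FPKM on B12 alone. In nhr-68 mutants it was at 8.26 and 8.32 FPKM with propionate and at 2.15 and 1.33 FPKM on B12. In wild type it was at 6.27 and 3.04 FPKM with propionate and at 1.4 and 0.91 FPKM on B12. The propionate libraries lay above the B12 libraries in each genotype, and the 2 nhr-10 propionate libraries above all others. The log2 difference was 3.50 ± 0.36 in nhr-10 mutants (adjusted p = 0.000432, 23.5-fold), 1.78 ± 0.36 in nhr-68 mutants (adjusted p = 0.0649) and 1.34 ± 0.36 in wild type (adjusted p = 0.102). The nhr-10 call was kept whichever library of the pair of groups was left out, but was lost in a fit of the compared groups alone. The nhr-10 response exceeded that of wild type by 2.16 ± 0.51 (adjusted p = 0.0343), while for nhr-68 the difference was 0.44, with a 95% interval of -0.67 to 1.54.

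The one member called for propionate in wild type was cyp-34A8 (V:3964797-3967823), a gene of the longest run. In nhr-10 mutants it was at 7.06 and 3.6 FPKM with propionate and at 8.86 and 6.26 FPKM on B12. In nhr-68 mutants it was at 4.78 and 5.54 FPKM with propionate and at 4.06 and 3.99 FPKM on B12. In wild type it was at 15.85 and 13.09 FPKM with propionate and at 3.44 and 2.59 FPKM on B12. The wild-type propionate libraries were the highest of all 18, and in nhr-10 mutants the groups overlapped. The wild-type log2 difference was 1.95 ± 0.26 (adjusted p = 0.00403, 4.80-fold), a call that ended without wild-type replicate 2 on B12 (adjusted p = 0.0775). The count of 1 became 3 without wild-type replicate 1 with propionate. The nhr-10 response minus the wild-type one was -2.42 ± 0.36 on the log2 scale (adjusted p = 0.0095, 95% interval -3.21 to -1.63), a call kept without any 1 of the 8 libraries. The nhr-10 call on this difference was lost in a fit of the compared groups alone. For nhr-68 the difference was -1.66 ± 0.36 (adjusted p = 0.265).

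The eicosanoid gene cyp-29A3 fell with propionate in nhr-10 mutants. In nhr-10 mutants it was at 1.12 and 1.34 FPKM with propionate and at 6.02 and 3.64 FPKM on B12, and in nhr-68 mutants at 1.72 and 1.56 FPKM with propionate and at 4.36 and 3.6 FPKM on B12. Wild-type larvae had it at 2.41 and 2.36 FPKM with propionate and at 4.24 and 4.5 FPKM on B12. The groups did not overlap in any genotype, and with propionate the wild-type libraries were the highest. The log2 difference was -1.36 ± 0.20 in nhr-10 mutants (adjusted p = 0.00371, kept without any 1 of the 4 libraries), -0.91 ± 0.20 in nhr-68 mutants (adjusted p = 0.0918) and -0.67 ± 0.20 in wild type (adjusted p = 0.122). The nhr-10 and wild-type responses differed by -0.69 (adjusted p = 0.132, 95% interval -1.31 to -0.08). The nhr-10 propionate call of cyp-29A3 was lost in a fit of the compared groups alone. The B12 and propionate comparisons share their B12 libraries.

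The other members called for propionate in nhr-10 mutants were cyp-34A6, cyp-14A2 and cyp-23A1. The level of cyp-34A6 (V:3958160-3961335), which lies in the same run as cyp-34A8, was 3.7 and 5.05 FPKM with propionate and 1.01 and 1.62 FPKM on B12, a log2 difference of 1.22 ± 0.19 (adjusted p = 0.00451). The level of cyp-14A2 (X:13267562-13269686) was 7.06 and 9.52 FPKM with propionate and 1.66 and 2.31 FPKM on B12, a log2 difference of 1.63 ± 0.28 (adjusted p = 0.00767). For both, the groups did not overlap, and the nhr-10 propionate libraries were the highest of all libraries. That of cyp-23A1 (II:4512211-4516133) was 3.87 and 5.56 FPKM with propionate and 1.36 and 1.88 FPKM on B12, a log2 difference of 1.12 ± 0.27 (adjusted p = 0.034). The call of cyp-34A6 ended without nhr-10 replicate 1 on B12 or replicate 2 with propionate (adjusted p = 0.059 to 0.0764), as did that of cyp-14A2 (adjusted p = 0.0827 to 0.107). That of cyp-23A1 also ended without replicate 2 on B12 (adjusted p = 0.0512 to 0.282 over the 3 fits). The count of 5 fell to 2 without replicate 1 on B12 and to 2 without replicate 2 with propionate.

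**Figure D2:**
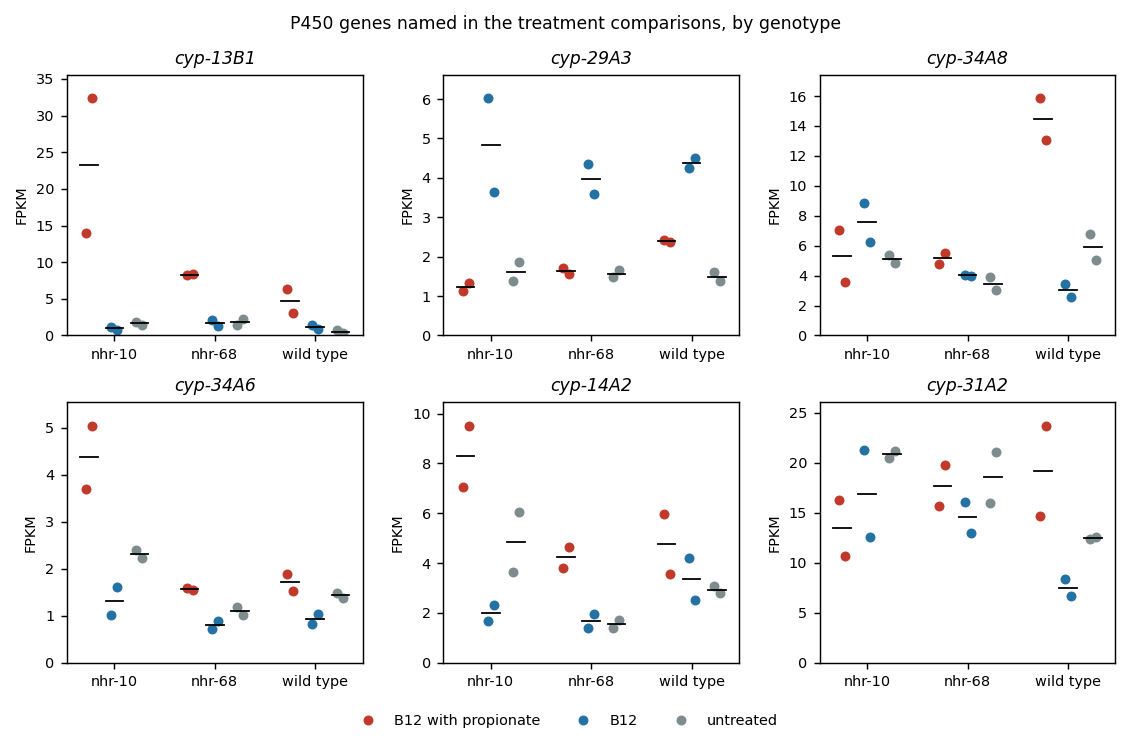
FPKM (y axis) of 6 P450 genes in each library, by genotype and treatment, with points for libraries and black lines for means of 2. The nhr-10 propionate libraries stand highest for cyp-13B1, cyp-34A6 and cyp-14A2, the wild-type propionate libraries stand highest for cyp-34A8, at 15.85 and 13.09 FPKM, and cyp-29A3 is high in the B12 groups of all 3 genotypes.

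Moulting and yolk genes moved with the nhr-10 propionate response. Of 10 epidermis and moulting markers, 6 rose with propionate in nhr-10 mutants (median log2 difference 1.96 over the list, against 0.04 for all genes), and their summed level was 1112.4 and 1749.17 FPKM with propionate and 283.43 and 487.71 FPKM on B12. All 6 yolk genes fell, with a median log2 difference of -3.91 and sums of 1213.17 and 103.79 FPKM with propionate and 8129.82 and 3305.0 FPKM on B12. Of all genes, 7.24% were called for propionate in nhr-10 mutants, in either direction. In wild type neither list had a called member for propionate, where only 0.411% of all genes were called. The part of these differences in the P450 results was not tested.

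In nhr-68 mutants the members nearest to a propionate call, after cyp-13B1 and cyp-29A3, were cyp-13A2 with a log2 difference of -1.04 ± 0.23 (adjusted p = 0.1) and cyp-32B1 with 1.06 (adjusted p = 0.208). In wild type cyp-31A2, the eggshell gene, was at 14.71 and 23.74 FPKM with propionate and at 8.34 and 6.63 FPKM on B12. These groups did not overlap, but the log2 difference of 1.22 ± 0.28 missed the threshold (adjusted p = 0.0787), as did 0.88 for cyp-14A1 (adjusted p = 0.0925).

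Tested as a difference of responses, 5 of 49 members (10.2%) responded differently to propionate in nhr-10 mutants and in wild type, 3 more positively and 2 more negatively, against 8.49% of all genes. Beside cyp-34A8 and cyp-13B1 these were cyp-29A2 at 1.39 ± 0.35 (adjusted p = 0.0375), cyp-31A2 at -1.51 ± 0.40 (adjusted p = 0.04) and cyp-23A1 at 1.42 ± 0.39 (adjusted p = 0.0442). For cyp-31A2 the nhr-10 libraries were at 16.26 and 10.71 FPKM with propionate and at 21.31 and 12.54 FPKM on B12, which overlap, against the wild-type values above. Its near-identical relatives cyp-31A3 and cyp-31A5 may share reads with it. The summed level of 10 oocyte and germline markers was 611.72 and 402.92 FPKM with propionate and 844.45 and 609.69 FPKM on B12 in nhr-10 mutants, and 587.07 and 871.57 FPKM with propionate and 393.01 and 454.13 FPKM on B12 in wild type. In the same difference of responses limma called 3 of these 10 markers, all 6 yolk genes and 3 of 11 sperm markers lower, and 2 of 10 moulting markers and 1 of 11 intestine markers higher. The part of these markers in the P450 differences was not tested.

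The calls beside cyp-34A8 rested on single libraries. The count of 5 was 1 without wild-type replicate 2 on B12, wild-type replicate 2 with propionate, nhr-10 replicate 1 on B12 or nhr-10 replicate 2 with propionate, 3 without wild-type replicate 1 on B12, and 11 without wild-type replicate 1 with propionate. For nhr-68 mutants limma called 0 members in the same difference, against 0% of all genes, and 5 members passed an unadjusted p of 0.05 (10.2%, against 11.4% of all genes). The smallest p-values after cyp-34A8 were those of cyp-13A2, at -1.28 (adjusted p = 0.318), cyp-31A2, at -0.96 (adjusted p = 0.419), and cyp-29A2, at 0.84 (adjusted p = 0.421).

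Most of the 47 calls of a P450 gene came from the comparisons of a mutant with wild type. In nhr-10 mutants limma called 1 of 49 members without addition, against 1.39% of all genes. On B12 it called 11 of 49, 7 higher and 4 lower (22.4%), against 9.68% of all genes. With propionate on B12 it called 6 of 49, 5 higher and 1 lower (12.2%), against 7.19% of all genes. In nhr-68 mutants it called 5 of 49 without addition, 2 higher and 3 lower (10.2%), against 6.02% of all genes. On B12 it called 10 of 49, 3 higher and 7 lower (20.4%), against 9.84% of all genes. With propionate on B12 it called 1 of 49, which was lower (2.04%), against 3.13% of all genes. In any of the 3 treatments 14 members were called in nhr-10 mutants (28.6%, against 15.9% of all genes) and 11 in nhr-68 mutants (22.4%, against 14.5% of all genes). Both counts were drawn against the same wild-type libraries.

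**Figure D3:**
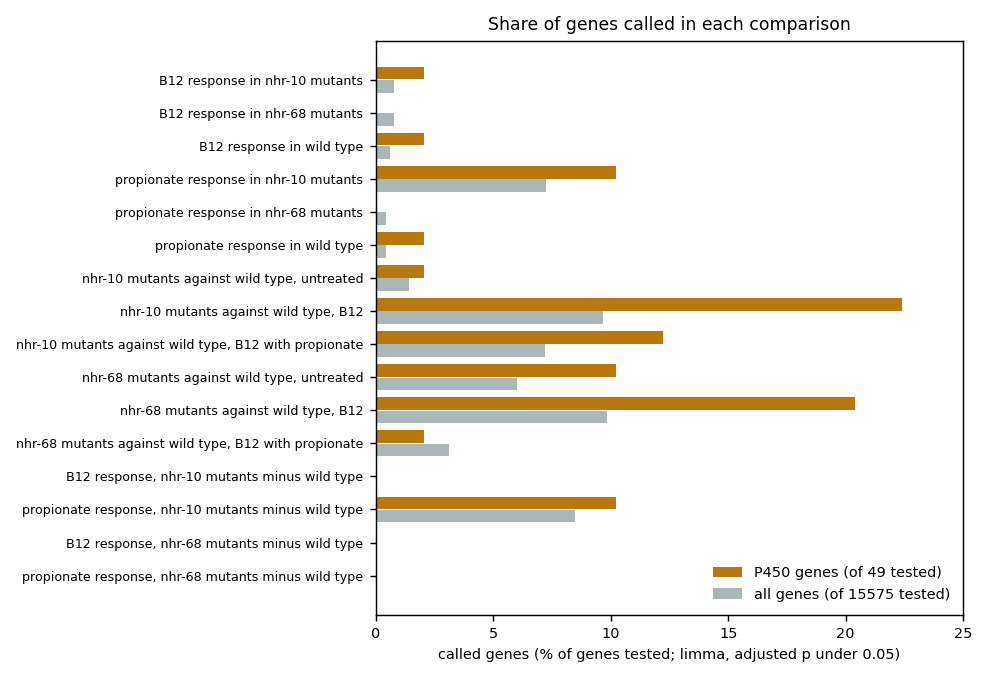
Percent of the 49 tested P450 genes and of all 15575 tested genes called by limma (x axis) in each of the 16 comparisons (y axis). The P450 share is above that of all genes by the most for the mutants on B12, at 22.4% against 9.68% for nhr-10 and 20.4% against 9.84% for nhr-68.

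The gene most steadily higher in the mutants was cyp-13A2 (II:9783384-9787629). The nhr-10 mutants had it at 12.41 and 23.61 FPKM with propionate, 21.17 and 16.77 FPKM on B12 and 17 and 16.87 FPKM without addition. The nhr-68 mutants had it at 8.84 and 7.78 FPKM with propionate, 17.4 and 18.96 FPKM on B12 and 11.28 and 13.15 FPKM without addition. Wild-type larvae had it at 5.52 and 5.32 FPKM with propionate, 5.04 and 3.92 FPKM on B12 and 4.78 and 4.55 FPKM without addition. All 12 mutant libraries lay above all 6 wild-type libraries. The nhr-10 difference was 1.5 ± 0.23 with propionate (adjusted p = 0.00235), 1.86 on B12 (adjusted p = 0.00159) and 1.66 without addition (adjusted p = 0.00332, 3.63-fold), and each call was kept without any 1 library. In a fit of the compared groups alone the nhr-10 call with propionate was lost. The nhr-68 difference was 0.53 with propionate (adjusted p = 0.231), 1.81 on B12 (adjusted p = 0.00114, kept without any 1 library) and 1.22 without addition (adjusted p = 0.0141). The last call ended without either untreated wild-type library or without untreated nhr-68 replicate 2 (adjusted p = 0.0767 to 0.17).

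The gene cyp-33C8 (V:3800782-3803542) was also higher in mutants, most of all in untreated nhr-68 larvae. The nhr-10 mutants had it at 10.94 and 14.18 FPKM with propionate, 10.24 and 6.57 FPKM on B12 and 10.54 and 9.43 FPKM without addition. The nhr-68 mutants had it at 7.67 and 10.27 FPKM with propionate, 9.67 and 8.1 FPKM on B12 and 23.26 and 19.46 FPKM without addition. Wild-type larvae had it at 5.31 and 5.01 FPKM with propionate, 2.51 and 3.64 FPKM on B12 and 6.36 and 3.85 FPKM without addition. Every mutant library lay above every wild-type library. The nhr-10 difference was 1.13 ± 0.25 with propionate (adjusted p = 0.0184), 1.19 on B12 (adjusted p = 0.0159) and 0.88 without addition (adjusted p = 0.121). The nhr-68 difference was 1.29 on B12 (adjusted p = 0.00998) and 1.90 without addition (adjusted p = 0.00267), and only the last was kept without any 1 library. The nhr-10 call with propionate ended without either wild-type replicate or nhr-10 replicate 2 (adjusted p = 0.0553 to 0.211). That on B12 ended without either wild-type replicate or nhr-10 replicate 1 (adjusted p = 0.0608 to 0.191). The nhr-68 call on B12 ended without wild-type replicate 1 or nhr-68 replicate 1 (adjusted p = 0.0671 to 0.11).

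Another gene with higher levels in the mutants, cyp-34A2 (V:15288777-15291095), was low in most wild-type libraries. The nhr-10 mutants had it at 1.78 and 1.96 FPKM with propionate, 5.47 and 5.28 FPKM on B12 and 3.73 and 2.98 FPKM without addition. The nhr-68 mutants had it at 3.03 and 3.57 FPKM with propionate, 2.4 and 3.79 FPKM on B12 and 2.29 and 2.25 FPKM without addition. In wild type it was at 0.19 and 2.38 FPKM with propionate, 0.3 and 0.1 FPKM on B12 and 0.1 and 1.02 FPKM without addition. Only the 1 high wild-type library with propionate overlapped mutant values. On B12 the difference was 2.41 ± 0.39 in nhr-10 mutants (adjusted p = 0.00469) and 1.75 ± 0.39 in nhr-68 mutants (adjusted p = 0.017). Without addition it was 1.54 in nhr-10 mutants (adjusted p = 0.0845). The gene was called in these 2 comparisons on B12 only, and in neither mutant with propionate. The wild-type B12 values of 0.3 and 0.1 FPKM rest on few fragments. The nhr-10 call on B12 ended without wild-type replicate 2 or nhr-10 replicate 1 on B12 (adjusted p = 0.056 to 0.0603), and the nhr-68 call without any 1 of its 4 libraries (adjusted p = 0.0583 to 0.111).

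On the lower side stood cyp-25A1 and cyp-25A2, neighbours on chromosome III at 3832591 to 3834586 and 3835221 to 3837211, and cyp-29A2 on chromosome V at 11217583 to 11219911. In nhr-68 mutants cyp-25A1 was at 1.81 and 2.29 FPKM with propionate, 1.66 and 1.66 FPKM on B12 and 2.23 and 0.74 FPKM without addition, against wild-type values of 4.78 and 4.76, 6.62 and 5.35, and 6.47 and 7.05 FPKM. All 6 nhr-68 libraries lay below all 6 wild-type libraries. The difference was -0.92 with propionate (adjusted p = 0.0758), -1.39 on B12 (adjusted p = 0.00802) and -1.71 ± 0.26 without addition (adjusted p = 0.00464). In nhr-10 mutants cyp-25A1 was at 3.69 and 3.99 FPKM with propionate, 1.94 and 2.88 FPKM on B12 and 3.87 and 5.3 FPKM without addition, also below the wild-type libraries of the same treatment, with a call on B12, where the difference was -1.04 (adjusted p = 0.0276).

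For cyp-25A2 the nhr-68 libraries were at 8.55 and 9.97 FPKM with propionate, 8.32 and 9.25 FPKM on B12 and 10.73 and 8.14 FPKM without addition, against wild-type values of 16.93 and 14.41, 25.67 and 20.81, and 26.78 and 18.66 FPKM. They lay below all wild-type libraries. The nhr-68 difference was -1.30 ± 0.24 on B12 (adjusted p = 0.00802) and -1.17 without addition (adjusted p = 0.019). In nhr-10 mutants it was -0.84 on B12 (adjusted p = 0.0471), from 11.41 and 13.57 FPKM. Without addition the nhr-10 libraries were at 16.77 and 28.34 FPKM and overlapped wild type, with a difference of -0.03 (adjusted p = 0.952, 95% interval -0.56 to 0.49). With propionate they were at 18.09 and 20.87 FPKM, a difference of 0.30 (adjusted p = 0.493). The remaining gene of the run, cyp-25A3, was not called in any comparison, with 4.06 to 7.83 FPKM in the nhr-68 libraries and 4.25 to 8.4 FPKM in the wild-type libraries.

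For cyp-29A2 the nhr-68 libraries were at 9.42 and 10.83 FPKM with propionate, 6.68 and 9.51 FPKM on B12 and 9.78 and 6.48 FPKM without addition, against wild-type values of 16.15 and 13.03, 22.8 and 20.27, and 21.08 and 15.41 FPKM. Again they lay below all wild-type libraries. The nhr-68 difference was -1.32 ± 0.25 on B12 (adjusted p = 0.0083) and -1.08 without addition (adjusted p = 0.0279), and the nhr-10 difference was -1.14 on B12 (adjusted p = 0.0177), from 7.94 and 10.69 FPKM. Without addition the nhr-10 libraries were at 13.28 and 18.82 FPKM, a difference of -0.18 (adjusted p = 0.725), and with propionate at 19.18 and 15.95 FPKM, a difference of 0.25 (adjusted p = 0.58), and both overlapped wild type. The gene lies 353529 bp from the start of nhr-68 on the same chromosome, and an effect of the deletion and one of a linked difference in that strain cannot be told apart. Across the 18 libraries cyp-29A2 varied with cyp-25A2 (Pearson r = 0.934) and with cyp-25A1 (r = 0.912), among the closest of 1176 pairs of tested members, whose r had a median of 0.149. The points share libraries and their scaling, and these values are a description.

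**Figure D4:**
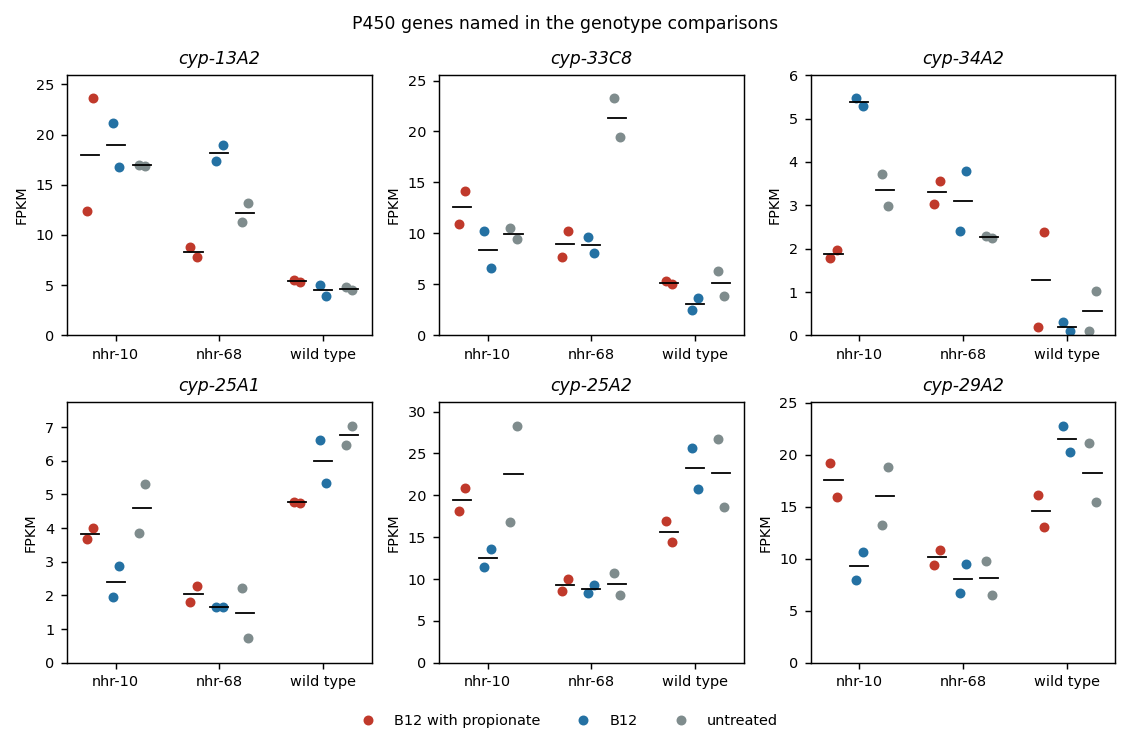
FPKM (y axis) of 6 P450 genes in each library, by genotype and treatment, with points for libraries and black lines for means of 2. The mutants are above wild type for cyp-13A2 and cyp-33C8 in all libraries, and the nhr-68 mutants below wild type for cyp-25A1, cyp-25A2 and cyp-29A2.

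The calls of these 3 genes also depended on single libraries. Fewer of all genes were called as well in each such fit of the nhr-68 comparisons given here. In nhr-68 mutants without addition, cyp-25A1 lost its call without nhr-68 replicate 2 (adjusted p = 0.0609), cyp-25A2 without that library or wild-type replicate 1 (adjusted p = 0.136 to 0.233) and cyp-29A2 without those or wild-type replicate 2 (adjusted p = 0.0589 to 0.307). On B12, cyp-25A1 and cyp-25A2 lost theirs without wild-type replicate 1 or nhr-68 replicate 1 (adjusted p = 0.0539 to 0.073 and 0.0557 to 0.0873) and cyp-29A2 without those or wild-type replicate 2 (adjusted p = 0.0506 to 0.108). The count of 5 called in nhr-68 mutants without addition was 2 without wild-type replicate 1, 3 without wild-type replicate 2 and 1 without nhr-68 replicate 2. The count of 10 on B12 was 5 without wild-type replicate 1, 4 without wild-type replicate 2 and 1 without nhr-68 replicate 1.

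Beyond these genes, 5 more were called in nhr-10 mutants on B12. Higher were cyp-34A8 by 1.08 (adjusted p = 0.0236), cyp-31A2 by 1.04 (adjusted p = 0.0373), cyp-14A1 by 0.79 (adjusted p = 0.0419) and cyp-32A1 by 1.06 (adjusted p = 0.0439). Lower was cyp-37A1, at 11.43 and 16.3 FPKM in nhr-10 mutants and 22.11 and 23.02 FPKM in wild type, a difference of -0.68 (adjusted p = 0.0438). The count of 11 was 4 without wild-type replicate 1, 1 without wild-type replicate 2 and 1 without nhr-10 replicate 1 on B12, and of the 11 only cyp-13A2 was kept in each of these fits. With propionate, nhr-10 mutants were called higher for cyp-13B1 by 2.05 ± 0.36 (adjusted p = 0.00535), cyp-34A6 by 0.98 (adjusted p = 0.00805) and cyp-23A1 by 1.0 (adjusted p = 0.0457), and lower for cyp-34A8, with a difference of -1.34 (adjusted p = 0.00833). That count of 6 was 2 without wild-type replicate 2 and 1 without nhr-10 replicate 2 with propionate. The single call of nhr-68 mutants with propionate was also cyp-34A8, with a difference of -1.33 (adjusted p = 0.0205), and it ended without any 1 of its 4 libraries (adjusted p = 0.0544 to 0.182). Nearest to a call in that comparison, after cyp-25A1, were cyp-33A1 at -0.61 (adjusted p = 0.121) and cyp-33C5 at -0.98 (adjusted p = 0.136). In nhr-10 mutants without addition the next was cyp-33C7 at 0.64 (adjusted p = 0.2).

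Germline, yolk and moulting markers also differed between the genotypes. On B12, in nhr-10 mutants 4 of 10 oocyte and germline markers, 2 of 6 yolk genes and 2 of 10 moulting markers were called higher than in wild type. In nhr-68 mutants the counts were 1, 4 and 3. Of all genes, 9.68% were called on B12 in nhr-10 mutants and 9.84% in nhr-68 mutants, in either direction. Summed yolk gene levels on B12 were 8129.82 and 3305.0 FPKM in nhr-10 mutants, 9652.78 and 7512.54 FPKM in nhr-68 mutants and 819.42 and 628.56 FPKM in wild type. Summed moulting marker levels on B12 went the other way from the moulting calls. They were 283.43 and 487.71 FPKM in nhr-10 mutants, 335.27 and 447.79 FPKM in nhr-68 mutants and 815.73 and 520.47 FPKM in wild type. With propionate, 6 of 10 moulting markers were called higher and 1 of 11 sperm markers lower in nhr-10 mutants, against 7.19% of all genes. In nhr-68 mutants these counts were 3 and 1, against 3.13% of all genes. Summed moulting marker levels were then 1112.4 and 1749.17 FPKM in nhr-10 mutants, 685.28 and 491.27 FPKM in nhr-68 mutants and 659.51 and 230.26 FPKM in wild type. Without addition, 3 of 11 sperm markers and 1 of 11 intestine markers were called lower in nhr-68 mutants, against 6.02% of all genes. No marker of these lists was called in nhr-10 mutants without addition, against 1.39% of all genes. Of 11 intestine markers at most 3 were called in any comparison, and their sum was 3861.24 to 6649.81 FPKM over all libraries. The part of these differences in the P450 counts was not tested.

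Of the 7 tested cyp-35 genes, a family known for its induction by foreign chemicals, 3 were called lower in nhr-68 mutants on B12. Of all genes, 9.84% were called there, in either direction. Replicates of a group varied widely. In nhr-68 mutants on B12, cyp-35A2 (V:7362319-7364182) was at 9.19 and 31.59 FPKM, against 60.5 and 102.89 FPKM in wild type on B12. The groups did not overlap, and the difference was -2.13 ± 0.53 (adjusted p = 0.0253). On B12 cyp-35A3 was at 0.68 and 4.46 FPKM in nhr-68 mutants and 8.5 and 18.06 FPKM in wild type, a difference of -2.15 ± 0.53 (adjusted p = 0.0235). For cyp-35A5 the values were 1.4 and 5.03 FPKM in nhr-68 mutants and 9.38 and 20.51 FPKM in wild type, a difference of -1.97 ± 0.50 (adjusted p = 0.029). The other 4 missed the threshold, with differences of -1.29 for cyp-35A4 (adjusted p = 0.0604), -1.26 for cyp-35C1 (adjusted p = 0.0902), -1.25 for cyp-35D1 (adjusted p = 0.106) and -0.74 for cyp-35B1 (adjusted p = 0.208). In nhr-10 mutants on B12 all 7 had lower means than in wild type, and none was called, against 9.68% of all genes. These calls and misses come from the main fit, which took no account of the replicate number. Counts with that number as a block are given below. The nhr-10 differences on B12 were -1.67 for cyp-35A2, -1.59 for cyp-35A5 and -1.42 for cyp-35A3 (adjusted p = 0.0661 to 0.106). For cyp-35C1, cyp-35A4, cyp-35D1 and cyp-35B1 they were -1.16, -1.06, -0.99 and -0.26 (adjusted p = 0.112 to 0.687). Also called lower in nhr-68 mutants on B12 was cyp-34A9, a gene known downstream of insulin signalling, by -1.98 ± 0.46 (adjusted p = 0.0196). It was at 3.6 and 6.2 FPKM in nhr-68 mutants and 26.6 and 17.7 FPKM in wild type. Its nhr-10 difference on B12 was -1.19 (adjusted p = 0.122). Without wild-type replicate 2 or nhr-68 replicate 1 on B12 cyp-35A2, cyp-35A3, cyp-35A5 and cyp-34A9 were not called, and cyp-35A2 and cyp-34A9 were not called without wild-type replicate 1 either (adjusted p = 0.0553 to 0.284 over these fits).

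Within groups, replicate 2 was above replicate 1 for 55 of 63 combinations of the 7 tested cyp-35 genes and 9 groups. For cyp-35A5 this held in all 9 groups. The largest ratio of replicate 2 to replicate 1 was 6.56, for cyp-35A3 in nhr-68 mutants on B12. Across the 18 libraries cyp-35A2 varied with cyp-35A3 (Pearson r = 0.913) and cyp-35C1 with cyp-35A5 (r = 0.926), although cyp-35C1 lies on chromosome V at 13896663 to 13898487, away from the other genes. Neighbouring copies may share reads, and the labels do not say what the replicate numbers stand for.

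**Figure D5:**
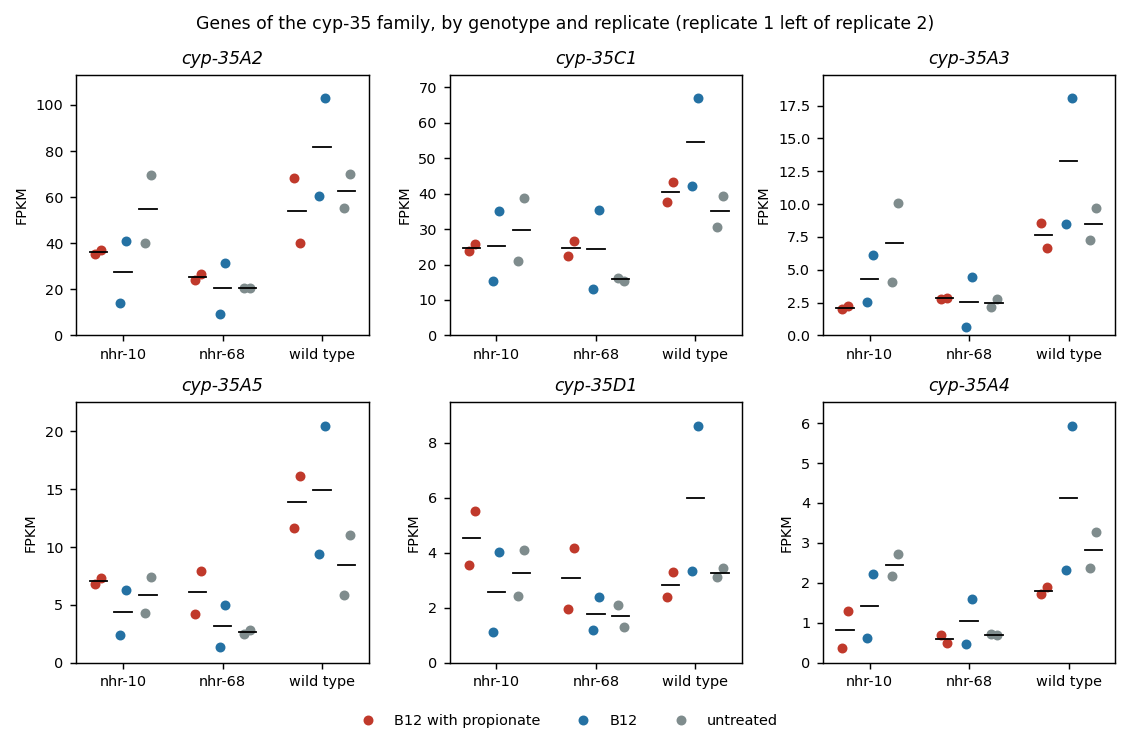
FPKM (y axis) of 6 cyp-35 genes in each library, by genotype and treatment, with points for libraries and black lines for means of 2. The 2 points of each B12 group lie far apart, and the wild-type B12 group has the highest mean for cyp-35A2, at 60.5 and 102.89 FPKM.

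Of 12 genes for partners of the P450 enzymes and for related oxidation, 7 were called in at least 1 comparison, against 26.2% of all genes. Of these 7, 5 were flavin monooxygenases, another class of oxidising enzyme. The P450 reductase gene emb-8 averaged 91.6 FPKM, more than any single P450 gene, ranged between 76.22 and 123.92 FPKM and was called in no comparison. The cytochrome b5 genes cytb-5.1 and cytb-5.2, whose products can pass electrons to P450 enzymes, were at 67.98 to 194.62 FPKM and 130.71 to 275.67 FPKM. Of the 12 partner and related genes, 2 were called for propionate in nhr-10 mutants, against 7.24% of all genes. There fmo-2 rose by 1.20 (adjusted p = 0.0147) and fmo-5 by 1.06 (adjusted p = 0.0153). Against wild type with propionate, nhr-10 mutants were called higher for 4 of 12, where 7.19% of all genes were called in either direction. These were fmo-2 by 1.82 (adjusted p = 0.000684), fmo-3 by 1.65 (adjusted p = 0.0443), fmo-5 by 0.80 (adjusted p = 0.0345) and daf-9 by 1.09 (adjusted p = 0.0214), the last a P450 gene outside the naming rule that makes the steroid hormone dafachronic acid. On B12, nhr-10 mutants were called higher for fmo-2 by 1.46 and lower for fmo-1, with a difference of -0.97 (adjusted p = 0.00411 and 0.0407), and nhr-68 mutants lower for fmo-1 at -1.11 and fmo-4 at -1.43 (adjusted p = 0.0219 and 0.0223). Without addition, nhr-68 mutants were called lower for cytb-5.1, at -1.0 (adjusted p = 0.0306).

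Of 12 regulators linked to P450 expression, which include nhr-8, nhr-86, nhr-176, nhr-49, ahr-1 and its partner aha-1, skn-1 and mdt-15, limma called 0 in every one of the 16 comparisons. Of all genes, 0% to 9.84% were called in a comparison and 26.2% in at least 1. The median log2 difference of the regulators was -0.01 in nhr-10 mutants against wild type on B12 and 0.06 in nhr-68 mutants against wild type on B12, against 0.08 and 0.00 for all genes. The aryl hydrocarbon receptor gene ahr-1 was the lowest of the regulators, at 0.33 to 1.21 FPKM.

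The tested genes listed here varied most like the leading members over the 18 libraries, and none of them has a cyp- symbol. For cyp-29A3 these were spin-3 (Pearson r = 0.902), F10A3.4, dct-16, ncx-6 and C50B6.7 (r = 0.883 to 0.85). For cyp-13B1 they were pals-6 (r = 0.941), pals-14, M7.8, cnc-11 and WBGene00021233, which has no symbol in the table used (r = 0.896 to 0.887). For cyp-34A8 they were E04D5.5 (r = 0.82), F42A9.6, Y111B2A.2, C48B4.11 and T21B10.4 (down to r = 0.777). For cyp-13A2 they were best-14 (r = 0.942), clec-7, F17C8.9, grd-10 and C15H9.11 (down to r = 0.934), and for cyp-33C8 rnp-5 (r = 0.897), F57G12.1, rcd-1, arrd-13 and clec-265 (down to r = 0.859). All points share the same libraries, so these values only describe likeness.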

How the data were processed

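Total RNA of whole L4 larvae was sequenced in 18 libraries prepared at BGI, per the labels' protocols. The values are FPKM, deposited by the authors in 1 table of 20953 genes with a column for each library. HISAT, Bowtie2 and RSEM are named as tools and WBcel235 as build in the submitters' processing notes. Tool versions, settings and strand use were not given in the sources used here. Reads that match several genes are split among these by RSEM, so values of near-identical P450 copies are uncertain. A change in abundant genes shifts all other FPKM values.

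Groups came from the labels. Symbols were found for 19090 identifiers. Coordinates came from the Ensembl annotation of WBcel235, which held all 74 P450 genes and lacked 208 identifiers of the table. The 15575 genes that reached 1 FPKM in 2 or more libraries were fitted on the log2(FPKM + 1) scale by limma 3.58.1 in R 4.3.3. The model had 1 mean per group and a trend of variance with level, and left 9 residual and 3.6 prior degrees of freedom. P-values were adjusted by the Benjamini-Hochberg method over all tested genes. Of the 16 comparisons, 12 set groups against each other (treatment effects within a genotype, mutants against wild type within a treatment) and 4 set a mutant's response against that of wild type. The fit was also run on simulated libraries with independent noise, with changes planted only in genes of higher level. That run does not cover changes of low genes or shifts shared between libraries.

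Members, gene lists and tests were chosen with earlier results of these data known. Named are called members, the 4 members with the smallest p in each comparison, the 10 highest members and the highest of each family, and the 5 genes most like a leading member. Printed intervals are limma's 95% intervals. As alternatives the pseudocount was 0.1, the filter was dropped, libraries were scaled by median ratios, the replicate number was a block, the fit held the compared groups alone, and each library was left out in turn.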

Additional observations from a re-analysis of the deposited data

Results flagged for a closer look

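The responses of 5 P450 genes to propionate differed between nhr-10 mutants and wild type by limma's test of the difference itself, which is 10.2% of the 49 tested, against 8.49% of all genes. They were cyp-34A8 with a log2 difference of responses of -2.42, cyp-31A2 with -1.51, cyp-13B1 with 2.16, cyp-23A1 with 1.42 and cyp-29A2 with 1.39. Without any 1 of the 8 libraries the result for cyp-34A8 was kept, at -2.83 to -2.02 (adjusted p = 0.00131 to 0.0447). The other 4 were lost in 5 or 6 of the 8 such fits, with adjusted p up to 0.184 for cyp-31A2, 0.152 for cyp-13B1, 0.197 for cyp-23A1 and 0.164 for cyp-29A2. All 5 differences kept their sign in each of these fits. None of the 5, cyp-34A8 included, was called in the fit that held the compared groups alone.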

How the results depend on the processing

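The labels do not say that replicate numbers mark a shared batch. Correlations of same-numbered deviations ran from -0.204 to 0.251 over the 12 comparisons between groups. Some genes still ran with the replicate number. Replicate 2 was the higher one in 9 of the 9 groups for cyp-35A5 and cyp-13A6, and in 1 for cyp-34A8 and cyp-14A5. The summed intestine markers were higher in replicate 2 in every group. The main fit did not take the numbers as pairs. With the replicate number as a block the counts of called members were 15 for nhr-10 mutants on B12, 14 for nhr-68 mutants on B12, 7 for untreated nhr-68 mutants and 6 for the difference of propionate responses between nhr-10 mutants and wild type, and the other counts were as reported.

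Of 47 calls, 45 were kept with the block, 45 with median-ratio scaling, 44 with a pseudocount of 0.1, 37 without the low-value filter and 14 with only the compared groups in the fit. No named difference changed sign. Some calls kept whichever library was left out were lost in at least 1 of these other fits. With only the compared groups, and so fewer libraries to estimate the spread, the counts were 0 for B12 in nhr-10 mutants and in wild type, 0 for propionate in nhr-10 mutants and in wild type, 1 for propionate in nhr-68 mutants, 2 for nhr-10 mutants on B12, 0 for both mutants with propionate, 2 for untreated nhr-68 mutants and 0 for the difference of propionate responses in nhr-10 mutants. That difference gave 9 calls with median-ratio scaling, 3 with a pseudocount of 0.1 and 3 without the filter. Median-ratio scaling gave 1 call for B12 in nhr-68 mutants, the smaller pseudocount 2 for propionate in wild type, and no filter 7 for nhr-10 mutants on B12. The cause of these shifts was not tested. Scaling moved the median of all genes by 0.12 for B12 in nhr-10 mutants and by -0.11 for untreated nhr-10 mutants against wild type.

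Leaving out 1 library gave 0 to 1 calls for B12 in nhr-10 mutants, 0 for B12 in wild type, 2 to 6 for propionate in nhr-10 mutants, 0 to 3 for propionate in wild type, and 1 to 11 for the difference of propionate responses in nhr-10 mutants. Against wild type it gave 1 untreated, 1 to 12 on B12 and 1 to 7 with propionate for nhr-10 mutants, and 1 to 5, 1 to 10 and 0 to 1 for nhr-68 mutants. In all other comparisons it gave 0. The lone library left in a group is then taken to vary like the others. The number of all genes called moved in these fits too. In most comparisons its lowest value was below that of the main fit, so such changes are not particular to P450 genes. Of the 47 calls, 8 were kept in each such fit, and genes under 1 FPKM rest on few fragments.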
